A study of Mus musculus with 4 samples.

Results

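Pleiotrophin and midkine are the 2 members of a small family of secreted, heparin-binding growth factors, encoded by *Ptn* and *Mdk*. They bind the sulfated sugar chains of proteoglycans at the cell surface and in the matrix around neurons. Binding to the receptor tyrosine phosphatase PTPRZ1 is known to inactivate its phosphatase domain, so that the tyrosine phosphorylation of its substrates rises. ALK is a receptor tyrosine kinase that was linked to these ligands and LTK is its closest relative, while syndecan-1 and syndecan-3 are heparan sulfate proteoglycans that serve as receptors or co-receptors. In the brain pleiotrophin is known to promote the outgrowth of neurites. The 7 genes of this ligand and receptor group, *Ptn*, *Mdk*, *Ptprz1*, *Alk*, *Ltk*, *Sdc1* and *Sdc3*, were taken by their NCBI gene numbers from 24532 identifiers in the deposited tables.

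The libraries were made from bulk RNA of cerebellar vermis dissected to enrich granule cells (GCE tissue), 2 from WT and 2 from *Kdm3b*+/- mice, each from a separate mouse. The mice were adult males older than 7 weeks. The *Kdm3b*+/- mice carry 1 gene-trapped allele of *Kdm3b*, which encodes a demethylase of histone H3 lysine 9, and the WT mice were their littermates. All mutants descend from a single targeted ES cell line, backcrossed to C57Bl/6N and then crossed to C57Bl/6J, and the trapped allele is carried by every cell type and not by granule cells alone. GCE tissue was cut by hand from slices, so other cells of the vermis are present. Each value below is TPM, a level scaled to gene length and to the total of its library, and the comparison asks whether the loss of 1 *Kdm3b* allele goes with another level of these transcripts.

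Between 4.92 and 6.69 gigabases were aligned per library, as computed from coverage divided by FPKM in each table. *Kdm3b* itself had a TPM of 9.10 and 11.0 in WT animals and 8.30 and 7.90 in *Kdm3b*+/- animals. The difference was −0.27 on the log2 scale (standard error 0.17, adjusted p = 0.424 from limma). Both *Kdm3b*+/- values were below both WT values, a pattern of 32.0% of the 13652 tested genes, those averaging 1 TPM or more. The TPM of *Kdm3b* sums reads over the whole gene, including the exons before the trap. It is thus only a partial check of the genotype. All 8 granule cell markers examined had a mean TPM of at least 1. Their summed TPM was 3440 and 4164 in WT animals and 3482 and 3551 in *Kdm3b*+/- animals. The means of 5 were higher and those of 3 lower in *Kdm3b*+/- mice. Without overlap *Zic1* was higher, with 15.4 and 12.5 TPM in WT animals against 20.3 and 22.1 TPM. *Cbln3* was lower without overlap, with 971 and 1229 TPM against 769 and 851 TPM. The 8 oligodendrocyte markers summed to between 14888 and 17795 TPM per library, and their groups overlapped. *Mbp* alone gave 10521 to 12577 TPM of this sum, which hides the others. Of the 8 means 4 were higher and 4 lower in *Kdm3b*+/- mice. *Mobp* had 925 and 893 TPM in WT animals against 471 and 482 TPM (log2 fold change −0.93, adjusted p = 0.0133 from limma). *Opalin* had 82.9 and 88.3 TPM against 119 and 163 TPM (log2 fold change 0.69, adjusted p = 0.128). The 8 Purkinje cell markers stood at 1566 TPM in WT mouse 1 and between 670 and 873 TPM in the other libraries. All 8 had a lower mean in *Kdm3b*+/- animals, beside 8250 of the 13652 tested genes. Without overlap 2 of the 8 were lower, *Rgs8* and *Slc1a6*, and 0 higher, beside 32.0% and 19.2% of all tested genes. The others overlapped, among them *Pcp2* with 281 and 133 TPM in WT animals against 187 and 183 TPM. In bulk tissue, fewer cells of a type and less RNA per cell cannot be told apart.

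The 7 genes lie apart from each other in the mouse genome (GRCm38, positions as in the deposited tables). *Ptn* lies on the reverse strand of chromosome 6 from 36715663 to 36811361, and its longest annotated transcript has 4 exons and 2558 bases. *Mdk* is a compact gene on the reverse strand of chromosome 2 from 91929805 to 91932297, with 5 exons and 1054 bases in its longest transcript. *Ptprz1* lies on the forward strand of chromosome 6 from 22875502 to 23052916, with 30 exons. *Alk* spans 735 kb on the reverse strand of chromosome 17 from 71868988 to 72604307, with 29 exons. *Ltk* fills 9.11 kb on the reverse strand of chromosome 2 from 119751326 to 119760431, with 20 exons. *Sdc1* lies on the forward strand of chromosome 12 from 8771396 to 8793687, and *Sdc3* on the forward strand of chromosome 4 from 130792537 to 130826318, with 5 exons each.

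The ligands were the most highly expressed genes of the group. *Ptn* and *Mdk* stood at percentiles 86.9 and 82.4 of mean TPM among the 13652 tested genes, those that averaged 1 TPM or more. The percentiles were 67.3 and 61.9 for *Sdc3* and *Sdc1*, and 41.4 and 39.9 for *Ptprz1* and *Ltk*. *Ptn* was above *Mdk* in all 4 libraries, by a ratio of TPM between 1.03 and 1.63, although their ranges over the libraries overlapped. *Mdk* was 1.62 to 3.28 times as high as *Sdc3*, without overlap. *Sdc3* was above *Sdc1* in 3 of 4 libraries and the ratio ran from 0.979 to 1.56, so these neighbours in the order did not separate. *Sdc1* was 1.85 to 3.10 times as high as *Ptprz1*. *Ptprz1* and *Ltk* did not separate, each being the higher of the pair in 2 of 4 libraries. *Alk* was far below all others, with *Ltk* 50.5 to 127 times as high.

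**Figure D1:**
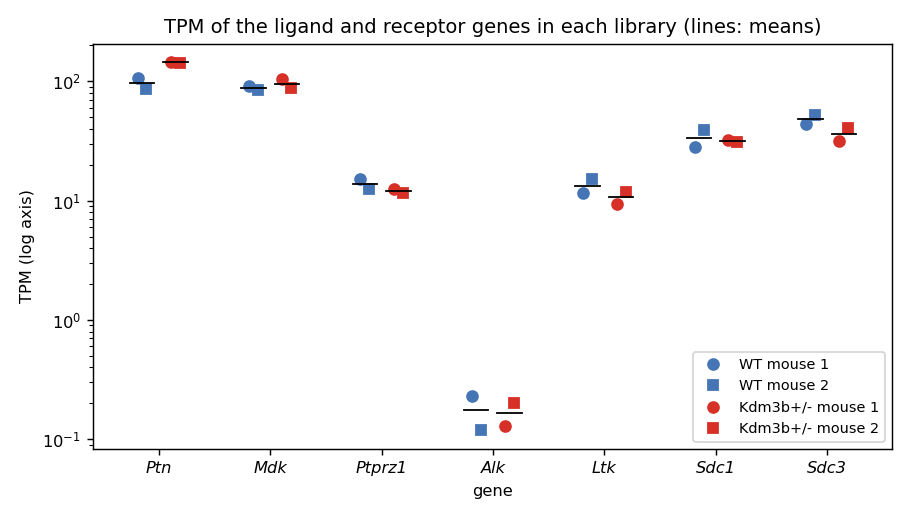
TPM on a log axis of the 7 genes in the 2 WT libraries (blue) and the 2 *Kdm3b*+/- libraries (red), with circles for mouse 1, squares for mouse 2 and lines for the means. The groups are apart for *Ptn* (86.4 to 107 TPM in WT mice, 144 in each *Kdm3b*+/- mouse) and for *Sdc3*, and overlap for the other genes.

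No member was DEX, that is, none had an adjusted p under 0.05 with a fold change over 1.2 by limma, which called 0.461% of the 13652 tested genes, 16 higher and 47 lower in *Kdm3b*+/- mice. With median-ratio scaling of the libraries 29 were higher and 40 lower, and with FPKM 14 and 25. Of the 7 members, 6 had a mean TPM of at least 1 and entered the test. *Alk* did not. An unadjusted p under 0.05 was found for 2 of the 6, *Ptn* and *Sdc3*, and for 17.0% of all tested genes. *Ptn* was the 1 member with both *Kdm3b*+/- values above both WT values, a pattern of 19.2% of all tested genes, and *Sdc3* the 1 member with both below, a pattern of 32.0%. At these shares, 6 genes would hold about 1 gene with such a p, 1 with both values above and 2 with both below, so the counts are no result about the members. With 2 mice against 2, an exact two-sided permutation test of a single value cannot give a p below 0.333.

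Of the ligands, *Ptn* (NCBI gene 19242) had a TPM of 107 and 86.4 in WT animals and 144 in each of the *Kdm3b*+/- mice. The WT mice differed more from each other than the *Kdm3b*+/- mice did, and the highest WT value was below both *Kdm3b*+/- values. The means were 96.8 ± 14.7 and 144 ± 0.369 TPM (SD, n = 2 each), a ratio of 1.49. Taken as log2(TPM + 1), the difference was 0.58 (standard error 0.15, 95% interval 0.25 to 0.90), with an unadjusted p = 0.00323 and an adjusted p = 0.142 from limma. It ranged from 0.42 to 0.73 when single libraries were left out and was positive under all 16 alternatives of processing, several of which could not change its sign. The mean read depth over its exons was between 214 and 439 per library. *Ptn* is among the genes that the study called from the same libraries, so its direction here is not independent evidence. The study made its calls with DESeq2 and not with limma on TPM, so its calls and the adjusted p here come from unlike tests.

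*Mdk* (NCBI gene 17242), whose protein shares its fold and heparin-binding sites with pleiotrophin, had a TPM of 92.0 and 83.9 in WT animals and 104 and 88.0 in *Kdm3b*+/- animals. The groups overlapped. The means were 87.9 ± 5.70 and 95.9 ± 11.1 TPM (SD, n = 2 each), and the log2 fold change was 0.12 (95% interval −0.20 to 0.44, adjusted p = 0.694). With libraries corrected for the length and GC content of transcripts the value was −0.11. The interval holds 0 and also changes of up to 0.44, so a small difference of either sign was not detectable with these mice.

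Within a library, the level of *Ptn* was set against that of its partner genes, a ratio that does not depend on how libraries are scaled to each other. The ratio of *Ptn* to *Mdk* was 1.17 and 1.03 in WT animals and 1.39 and 1.63 in *Kdm3b*+/- animals. *Ptn* thus made up 53.8% and 50.7% of the summed ligand TPM in WT animals and 58.2% and 62.0% in *Kdm3b*+/- animals. The ratio of *Ptn* to *Ptprz1*, the ligand to its receptor phosphatase, was 7.02 and 6.89 in WT animals and 11.5 and 12.5 in *Kdm3b*+/- animals. Neither ratio overlapped between the groups, and for both the smallest p of an exact test is 0.333. *Ptn* itself did not overlap between the groups, so these ratios are not a result apart from its own level. How often the ratios of other gene pairs are apart was not computed. The sum of both ligands was 199 and 170 TPM in WT animals and 248 and 232 TPM in *Kdm3b*+/- animals.

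**Figure D2:**
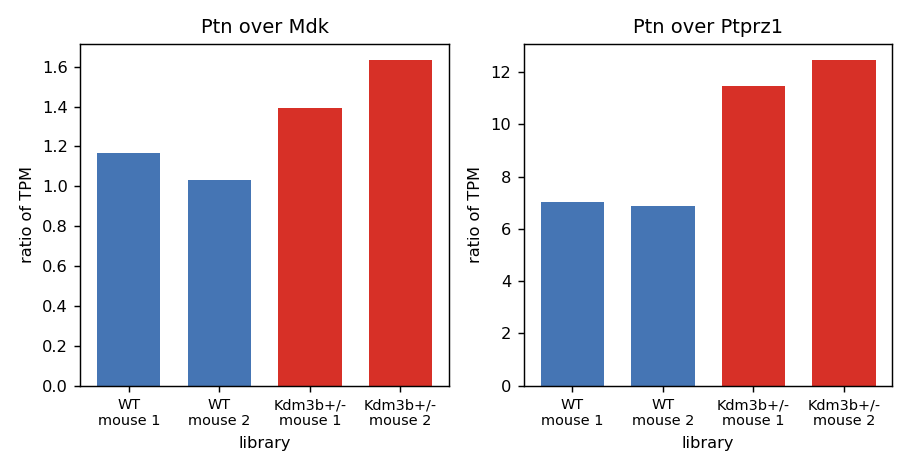
Ratio of the TPM of *Ptn* to that of *Mdk* (left) and of *Ptprz1* (right) in each of the 4 libraries, as bars from 0 (blue, WT; red, *Kdm3b*+/-). The bars of the *Kdm3b*+/- mice, at 1.39 and 1.63 and at 11.5 and 12.5, are above those of the WT mice.

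*Ptprz1* (NCBI gene 19283), the receptor phosphatase that also gives rise to the secreted proteoglycan phosphacan, had a TPM of 15.3 and 12.5 in WT animals and 12.6 and 11.5 in *Kdm3b*+/- animals. *Kdm3b*+/- mouse 1 and WT mouse 2 were nearly equal. The log2 fold change was −0.18 (standard error 0.17, 95% interval −0.56 to 0.19, adjusted p = 0.59), and it ran from −0.32 to −0.05 when single libraries were left out. The tables sum all transcripts of a gene, so the receptor and the secreted form cannot be told apart.

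The kinase receptors were at unlike levels. *Ltk* (NCBI gene 17005) had a TPM of 11.7 and 15.1 in WT animals and 9.41 and 11.9 in *Kdm3b*+/- animals. The higher *Kdm3b*+/- value was just above the lower WT value. Its log2 fold change was −0.30 (standard error 0.19, 95% interval −0.72 to 0.12, adjusted p = 0.428). It was −0.47 without WT mouse 1 and −0.13 without WT mouse 2. *Alk* (NCBI gene 11682) had a TPM of 0.231 and 0.119 in WT animals and 0.129 and 0.203 in *Kdm3b*+/- animals. Its mean read depth was between 0.293 and 0.621 per library, less than 1 read over each base of its exons, so a difference in *Alk* was not detectable at this depth. In a fit without a minimum TPM it gave −0.01 in log2 terms (95% interval −0.23 to 0.20, adjusted p = 0.967), on a scale where the added 1 outweighs its TPM. The dedicated ligands of ALK and LTK, the cytokines ALKAL1 and ALKAL2, were hardly seen. *Alkal1* was listed at 0 in all 4 libraries, and *Alkal2* was listed at 0 in 3 libraries and at 0.399 TPM in *Kdm3b*+/- mouse 2.

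*Ltk* and *Mdk* have close neighbours, and the sources used here do not give whether the counting used strand. *Ltk* ends 72 bases from the end of *Itpka*, an inositol trisphosphate kinase gene on the opposite strand. *Itpka* had a TPM of 33.9 and 15.7 in WT animals and 15.9 and 14.6 in *Kdm3b*+/- animals. *Mdk* begins 524 bases after the end of *Dgkz*, a diacylglycerol kinase gene on the same strand, and overlaps the end of *Chrm4* on the opposite strand by 25 bases. *Dgkz* had a TPM of 125 and 147 in WT animals and 73.6 and 97.9 in *Kdm3b*+/- animals (log2 fold change −0.67, adjusted p = 0.142) and was called by the study from these libraries. *Chrm4* was between 0.41 and 1.25 TPM. The part of reads from these neighbours in *Ltk* and *Mdk* was not tested.

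Of the syndecans, *Sdc3* (NCBI gene 20970), the main neuronal syndecan, had a TPM of 44.1 and 51.9 in WT animals and 31.7 and 41.0 in *Kdm3b*+/- animals. Both *Kdm3b*+/- values were below both WT values, the nearest pair being 41.0 and 44.1. The means were 48.0 ± 5.46 and 36.3 ± 6.61 TPM (SD, n = 2 each), a ratio of 0.757. The log2 fold change was −0.40 (standard error 0.17, 95% interval −0.78 to −0.02, unadjusted p = 0.0431, adjusted p = 0.278). It was −0.22 without *Kdm3b*+/- mouse 1 and −0.58 without *Kdm3b*+/- mouse 2, and negative under all 16 alternatives, several of which could not change its sign. The unadjusted limma p for *Sdc3* was 0.0645 with median-ratio scaling, 0.0657 with FPKM and 0.0942 with quantile normalization. With the correction for length and GC content it was 0.0859, at a log2 fold change of −0.24.

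*Sdc1* (NCBI gene 20969), the syndecan best known from epithelia and plasma cells, had a TPM of 28.3 and 38.9 in WT animals and 32.4 and 31.1 in *Kdm3b*+/- animals. Both *Kdm3b*+/- values lay between the WT values. The log2 fold change was −0.06 (95% interval −0.46 to 0.33, adjusted p = 0.884), and the value was at or above 0 with median-ratio scaling, quantile normalization, FPKM and the correction for length and GC content. In 3 of the 4 libraries *Sdc3* was the more abundant of the pair.

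The members did not share 1 pattern across the mice. In WT mouse 2 *Ltk*, *Sdc1* and *Sdc3* were higher than in WT mouse 1, and *Ptn*, *Mdk*, *Ptprz1* and *Alk* were lower. Across the 6 tested members the median log2 fold change was −0.12, beside −0.07 for all tested genes, with 2 means higher and 4 lower. The split was 3 and 3 with median-ratio scaling, quantile normalization and FPKM. The median of all tested genes was −0.01 with median-ratio scaling and 0.01 with quantile normalization.

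**Figure D3:**
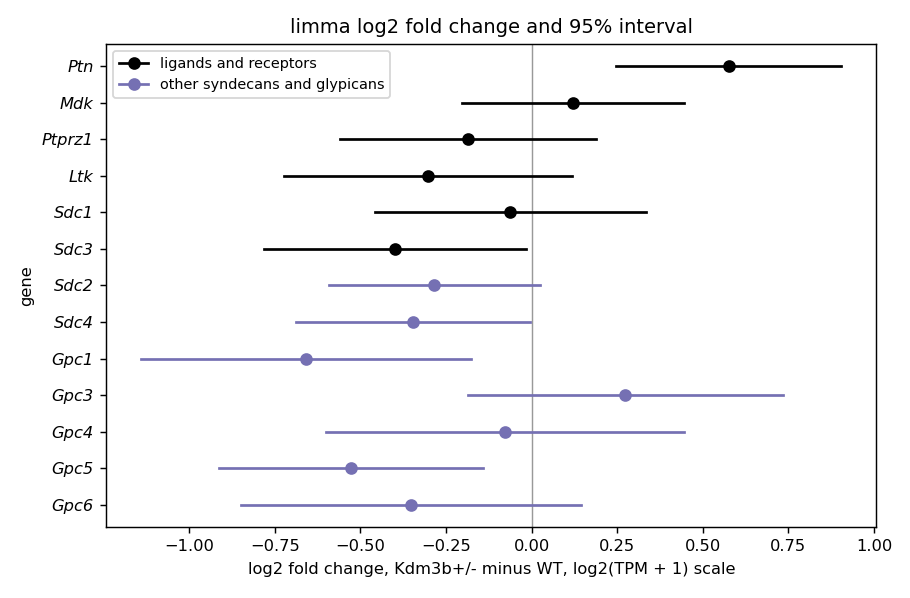
Log2 fold change (points) of *Kdm3b*+/- against WT mice on the log2(TPM + 1) scale with its 95% interval from limma (lines), for the 6 tested ligand and receptor genes (black) and the 7 other tested syndecans and glypicans (violet). The interval lies above 0 for *Ptn* (0.25 to 0.90), and it lies below 0 for *Sdc3* (−0.78 to −0.02), *Gpc1*, *Gpc5* and *Sdc4*, but no gene shown passed an adjusted p of 0.05. With median-ratio scaling the unadjusted limma p was 0.0645 for *Sdc3* and 0.11 for *Sdc4*, and under 0.05 for *Ptn*, *Gpc1* and *Gpc5*.

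The other genes of the pathway were taken from 7 lists with 89 genes, of which 72 were tested. None was DEX by limma. An unadjusted p under 0.05 was found for 11 of the 72, 1 higher and 10 lower, beside 17.0% of all tested genes (5.47% higher and 11.5% lower). Both *Kdm3b*+/- values were above both WT values for 7 genes and below for 23, beside 19.2% and 32.0% of all tested genes. The median log2 fold change was −0.11. Of the 24 pathway genes named below for the size of their difference, 19 moved by over 1.5 times when 1 library was left out, and 0 changed sign. All of them but *Ptprg*, *Gpc6*, *Chpf* and *Chpf2* had groups without overlap, where leaving out 1 library cannot change the sign.

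The other heparan sulfate proteoglycans of the cell surface had the lowest median of these lists. Of 8 listed syndecans and glypicans 7 were tested, 6 had a lower and 1 a higher mean in *Kdm3b*+/- mice, and the median log2 fold change was −0.35, while 5402 of all tested genes had a higher and 8250 a lower mean. The split of 6 and 1 held with median-ratio scaling, quantile normalization and the correction for length and GC content, with medians of −0.28, −0.28 and −0.31. Both *Kdm3b*+/- values were below both WT values for *Sdc2*, *Sdc4*, *Gpc1* and *Gpc5*, 4 of the 7 beside 32.0% of all tested genes, and above for 1 of the 7, *Gpc3*, beside 19.2%. *Gpc3* had 1.06 and 1.22 TPM in WT animals and 1.86 and 1.34 TPM in *Kdm3b*+/- animals (adjusted p = 0.51). *Gpc1*, a glycosylphosphatidylinositol-anchored proteoglycan, had a TPM of 48.6 and 66.8 in WT animals and 29.5 and 43.2 in *Kdm3b*+/- animals (log2 fold change −0.66, adjusted p = 0.197). *Gpc5* had 17.9 and 15.9 TPM against 10.1 and 12.8 TPM (log2 fold change −0.53, adjusted p = 0.197). *Sdc4*, a syndecan of focal adhesions, had 78.8 and 65.0 TPM against 53.1 and 59.3 TPM (log2 fold change −0.35, adjusted p = 0.29). *Gpc6* overlapped between the groups, with 3.67 and 2.32 TPM against 2.34 and 1.85 TPM.

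The whole syndecan family, *Sdc1* to *Sdc4*, summed to 213 and 221 TPM in WT animals and to 168 and 185 TPM in *Kdm3b*+/- animals. *Sdc2*, which is found on neurons and glia, had 62.1 and 65.4 TPM against 50.5 and 53.9 TPM (log2 fold change −0.28, adjusted p = 0.322). The make-up of the family overlapped between the genotypes for *Sdc3*, which held 20.7% and 23.5% of the sum in WT animals and 18.9% and 22.1% in *Kdm3b*+/- animals. *Sdc1* held between 13.2% and 19.3% of the sum, and *Sdc4* between 29.4% and 37.0%.

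Genes that build and edit heparan sulfate numbered 21, and 17 were tested. Of these, 6 had a higher and 11 a lower mean in *Kdm3b*+/- mice, 7 were lower and 1 higher without overlap (32.0% and 19.2% of all tested genes), and the median log2 fold change was −0.17. The median was nearer to 0 under other processing, with −0.10 after median-ratio scaling, −0.09 with FPKM, −0.07 after correction for length and GC content and −0.06 after quantile normalization. *Sulf2*, an extracellular sulfatase that removes 6-O-sulfates from the chains, had a TPM of 15.9 and 17.1 in WT animals and 10.1 and 12.3 in *Kdm3b*+/- animals (log2 fold change −0.53, adjusted p = 0.188). *Ext2*, a subunit of the polymerase that extends the chain, had 63.0 and 75.8 TPM against 46.2 and 52.3 TPM (log2 fold change −0.48, adjusted p = 0.19). *Hs3st5*, a 3-O-sulfotransferase, had 5.67 and 5.36 TPM against 3.17 and 4.25 TPM. *Ndst2*, which replaces acetyl by sulfate groups on the chain, had 16.1 and 24.2 TPM against 14.5 and 14.3 TPM.

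Chondroitin sulfate, the chain carried by PTPRZ1 and phosphacan, is built by a list of 16 genes, of which 12 were tested. The means were higher for 3 and lower for 9, a split that was 6 and 6 with median-ratio scaling, quantile normalization and the correction for length and GC content. *Chst11*, a 4-O-sulfotransferase, had the largest difference of the list, with a TPM of 3.22 and 3.71 in WT animals and 5.77 and 5.38 in *Kdm3b*+/- animals (log2 fold change 0.56, adjusted p = 0.187), and the study called it from these libraries. *Ust*, a 2-O-sulfotransferase, was on the other side, with 32.7 and 45.6 TPM against 27.0 and 28.4 TPM (log2 fold change −0.47, adjusted p = 0.247). The polymerizing factors *Chpf* and *Chpf2* overlapped between the groups, with log2 fold changes of −0.36 and −0.48. Without WT mouse 2 *Chpf* was at −0.03, and without *Kdm3b*+/- mouse 1 *Chpf2* was at −0.09.

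Of 15 other receptors and binding partners of the ligands 12 were tested, 5 with a higher and 7 with a lower mean, and with median-ratio scaling the split was 7 and 5. *Nrp1*, which encodes the co-receptor neuropilin-1, had a TPM of 1.19 and 1.18 in WT animals and 1.53 and 2.29 in *Kdm3b*+/- animals (log2 fold change 0.40, adjusted p = 0.356). *Lrp1*, a large endocytic receptor, had 32.8 and 41.3 TPM against 29.9 and 32.6 TPM. *Cspg5*, the transmembrane proteoglycan neuroglycan C, had 93.6 and 105 TPM against 90.5 and 85.9 TPM (log2 fold change −0.17, adjusted p = 0.542). The integrin subunit *Itga6* stood at 3.41 and 3.88 TPM against 4.08 and 4.57 TPM, a log2 difference of 0.20 with an adjusted p = 0.594.

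Of 14 relatives and adhesion partners of PTPRZ1 11 were tested, with a median log2 fold change of −0.06 that was 0.02 with median-ratio scaling and 0.04 with quantile normalization, and the values ran from −0.16 in *Nrcam* to 0.25 in *Cntn6*. *Cntn6*, a contactin of granule cells, had a TPM of 35.3 and 38.4 in WT animals and 46.9 and 41.1 in *Kdm3b*+/- animals (adjusted p = 0.41). *Ptprg*, the phosphatase nearest in sequence to PTPRZ1, had 4.21 and 5.29 TPM against 4.28 and 4.10 TPM. *Cntn4* had a log2 fold change of −0.14. Among the 3 genes too low to be tested, *Cntn5* (0.124 and 0.123 TPM against 0.340 and 0.315 TPM) and *Tnc* (0.221 and 0.0805 TPM against 0.312 and 0.475 TPM) were higher in both *Kdm3b*+/- mice. *Cntn3* overlapped, with 1.14 and 0.740 TPM against 0.674 and 0.964 TPM. How often genes at such low levels are apart was not computed.

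Downstream, 13 genes for PTPRZ1 substrates and ALK adaptors were all tested, 2 with a higher and 11 with a lower mean, beside 5402 and 8250 of all tested genes. The split was 5 and 8 with quantile normalization and 3 and 10 with median-ratio scaling, FPKM and the correction for length and GC content. *Git1*, a PTPRZ1 substrate that scaffolds signaling at synapses, had a TPM of 59.2 and 78.7 in WT animals and 40.5 and 51.1 in *Kdm3b*+/- animals (log2 fold change −0.58, adjusted p = 0.189). *Plcg1*, a phospholipase recruited by receptor kinases, had 7.82 and 11.3 TPM against 3.54 and 6.42 TPM (log2 fold change −0.84, adjusted p = 0.183), and the study called it from these libraries. Its log2 fold change was −0.49 without *Kdm3b*+/- mouse 1 and −1.2 without *Kdm3b*+/- mouse 2. The adaptor *Shc1* had 6.44 and 8.45 TPM against 4.42 and 5.69 TPM (adjusted p = 0.266). *Frs2*, another adaptor, had 7.16 and 7.71 TPM against 5.22 and 6.67 TPM, a log2 difference of −0.29 with an adjusted p = 0.429.

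Glia are a known source of pleiotrophin and PTPRZ1, so markers of other cell types are given beside these genes. The 10 markers of astrocytes and Bergmann glia summed to 1321 and 1220 TPM in WT animals and to 1156 and 1368 TPM in *Kdm3b*+/- animals, which overlapped, with 2 genes higher and 5 lower without overlap, beside 19.2% and 32.0% of all tested genes. Of the 10 means 3 were higher and 7 lower, the lowest log2 fold changes being −1.03 in *Gdf10*, −0.69 in *Aldh1l1* and −0.47 in *Slc1a3*, with adjusted p = 0.157, 0.127 and 0.216. The 1 DEX gene of the list, *Aqp4*, the water channel of astrocytes, rose, with a TPM of 59.2 and 82.3 in WT animals and 150 and 152 in *Kdm3b*+/- animals (log2 fold change 1.10, adjusted p = 0.033), and it is on the study's own list from these libraries. The 5 markers of oligodendrocyte precursors summed to 24.5 and 20.2 TPM against 21.5 and 26.2 TPM, and also overlapped. Summed markers of interneurons (188 and 144 TPM against 117 and 116 TPM) and of meningeal fibroblasts (58.8 and 53.5 TPM against 35.2 and 35.8 TPM) were lower in both *Kdm3b*+/- mice. *Gad1* made up most of the interneuron sum, with 140 and 104 TPM against 81.6 and 78.5 TPM. Of the 6 tested interneuron markers 4 were lower and 0 higher without overlap, beside 32.0% and 19.2% of all tested genes. The log2 fold change was −0.02 in *Slc32a1* and 0.08 in *Tfap2b*, whose groups overlapped. The fibroblast markers did not move as 1 group. *Fmod* fell, with 13.7 and 15.7 TPM against 2.53 and 2.76 TPM (adjusted p = 0.00168), *Dcn* had 36.1 and 28.6 TPM against 23.4 and 22.2 TPM, and 2 genes were higher without overlap, *Lum* with 1.29 and 0.984 TPM against 3.40 and 2.86 TPM (adjusted p = 0.0997) and *Col3a1* with 0.448 and 0.563 TPM against 0.863 and 1.05 TPM, below the minimum for testing. Summed mural cell markers were higher in both, with 45.5 and 47.0 TPM against 50.8 and 49.8 TPM. Of the 5 tested mural markers 3 means were higher and 2 lower. *Rgs5* alone was apart between the groups, with 15.9 and 14.7 TPM against 21.5 and 20.0 TPM (adjusted p = 0.235 from limma). Summed markers of microglia (248 to 274 TPM), endothelium (272 to 313 TPM) and choroid plexus or ependyma (1.81 to 4.83 TPM) overlapped. Of the 7 tested microglia markers 3 were higher and 0 lower without overlap. For the 6 tested endothelial markers these counts were 0 and 2, beside 19.2% and 32.0% of all tested genes. No marker was at 0 in all libraries. The part of these cell types in the levels of *Ptn* and *Sdc3* was not tested.

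The tested genes whose profile over the 4 libraries was nearest to that of *Ptn*, by the root-mean-square distance of centred log2(TPM + 1) values, were *Rpl38* (0.0128), *Hacd1* (0.0171), *Cyren* (0.0175), *Flywch2* (0.0229) and *Aif1* (0.0232). *Rpl38* had nearly the same level as well, with a TPM of 107 and 84.2 in WT animals and 140 and 141 in *Kdm3b*+/- animals. The other genes were at lower levels, from 1.81 TPM in *Cyren* to 52.8 TPM in *Flywch2*. The likeness rests on 4 libraries only.

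**Figure D4:**
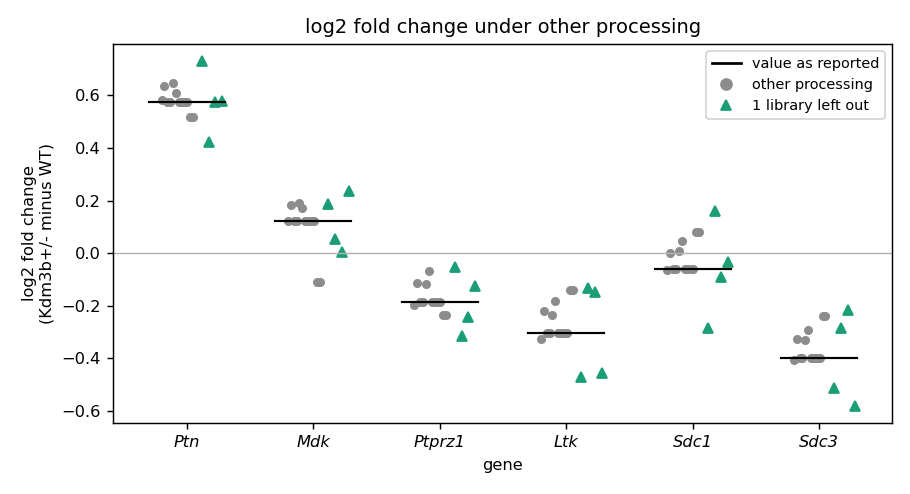
Log2 fold change of *Kdm3b*+/- against WT mice for the 6 tested ligand and receptor genes as reported (line), under the 12 other processing choices (grey circles) and with 1 library left out (green triangles). *Ptn* stays between 0.42 and 0.73 and *Sdc3* between −0.58 and −0.22, while *Mdk* and *Sdc1* lie on both sides of 0.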

How the data were processed

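RNA-seq was examined for GCE tissue of 2 WT and 2 *Kdm3b*+/- mice, separate animals grouped by the genotype in the sample labels. Per the paper's methods the authors trimmed reads, aligned them with STAR and ran StringTie; the versions and the genome build are not given in the sources used here. The authors deposited TPM (scaled to gene length and a total of 1000000), FPKM (scaled to gene length and mapped fragments) and coverage (a signal of mean read depth per base, not normalized) for each gene. The build was taken as GRCm38 from the positions, since 91.0% of identifiers had a start within 1 kb of that in the RefSeq table of this build. Entries sharing an identifier were summed.

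Genes averaging 1 TPM or more were tested as log2(TPM + 1) with limma version 3.58.1 (eBayes with trend, R version 4.3.3) with a single term for genotype, and the Benjamini-Hochberg adjustment ran over all 13652 of them. On this scale changes of low genes are understated. Robust fits used statmod version 1.5.0, and figures Matplotlib version 3.10.9. The script was tested on simulated data. TPM carries no counts, so no counting intervals are given.

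The members, gene lists and alternatives were chosen with earlier results of these data known. Named genes are the members, *Kdm3b*, the 4 genes with the largest absolute log2 fold change of each pathway list, and the 5 nearest to *Ptn*. *Sdc2*, *Gpc3*, *Cntn3*, *Cntn5*, *Tnc*, the single cell type markers, the neighbouring genes and the ALK cytokines were picked with their values in view.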

Additional observations from a re-analysis of the deposited data

How the results depend on the processing

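The count of DEX genes among all tested genes, 63, became 39 with FPKM, 37 with eBayes without trend, 33 with a log2 fold change over 1.2 as the threshold, 1 without a filter on low TPM, 600 with the replicate number as a block, and 20 with that block after the correction for length and GC content (12904 genes with both). With each library left out it ran from 21 to 188, where the lone library of a group is assumed to vary like the others. It was 21 without WT mouse 1, 28 without WT mouse 2, 121 without *Kdm3b*+/- mouse 1 and 188 without *Kdm3b*+/- mouse 2. Of the members, 1 was DEX with the replicate block, *Ptn* (adjusted p = 0.0339), and none under the other alternatives, in which its adjusted p was up to 0.463. Its block value after the correction for length and GC content was 0.52 (adjusted p = 0.176). Of the pathway genes 3 were DEX with the block, *Gpc1*, *Plcg1* and *Git1*, none with the block after the correction for length and GC content, and 0 to 1 with a library left out, *Plcg1* without *Kdm3b*+/- mouse 2. The replicate numbers mark different animals and were not taken as pairs, with a correlation of 0.121 between the deviations of same-numbered mice. *Mdk* turned to −0.11 with the correction for length and GC content, with and without the block. *Sdc1* turned to 0.0011 with FPKM, 0.0074 with median-ratio scaling, 0.045 with quantile normalization and 0.0796 with the correction for length and GC content with and without the block, and it ran from −0.29 to 0.16 with a library left out. The causes were not tested. *Ptn*, *Ptprz1*, *Ltk* and *Sdc3* kept their direction under all 16 alternatives. Of the members *Alk* had less than 1 read per base on average, and no counts are given from which the precision of the others could be computed.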
